A study of Mus musculus with 3 samples.

Results

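The 10 genes described here encode lectin-like receptors of natural killer (NK) cells. They are Klra4, Klra7, Klra8, Klra9, Klrb1c, Klrc1, Klrc2, Klrd1, Klre1 and Klrk1, chosen by gene name from the 32285 genes of the count matrices, and all 10 were detected in every library. Gene expression had been measured in single splenocytes with a 10x Genomics 5′ assay, which tags every captured transcript with a unique molecular identifier (UMI) and counts it once whatever its length. There were 3 libraries, each pooling cells of 2 conditions, and each condition pooled 3 mice of 12 to 14 weeks of age after depletion of T cells with CD3 microbeads. The C57BL/6 control library held male mice with a sham minipump and female mice. The Ang II library held C57BL/6 mice given angiotensin II, labelled as 490 ug/kg/min, by a minipump for 2 weeks, with placebo or with 2-HOBA (2-hydroxybenzylamine, a scavenger of isolevuglandins). The third library held the lupus-prone strain B6.SLE123, given placebo or 2-HOBA for 6 weeks. Cells carried 1 of 6 hashtag antibodies, C0301 to C0306, which no label ties to a condition or to a single mouse. The hashtag populations are therefore given as unassigned populations of a library, and the effect of 2-HOBA was not analysed here. Strain, treatment and library go together in these comparisons and cannot be told apart. The control library held both sexes, so each ratio to it is set beside ratios to its populations with and without Xist, the transcript that silences an X chromosome in female cells.

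NK cells read the surface of other cells with germline-encoded receptors, many of which are C-type lectin-like proteins encoded side by side in the NK gene complex. Inhibitory members bind class I molecules of the major histocompatibility complex and restrain the cell through tyrosine phosphatases, and activating members signal through the adaptors DAP12 (Tyrobp), DAP10 (Hcst) or the Fc receptor gamma chain (Fcer1g). Each NK cell transcribes its own subset of the Ly49 (Klra) genes, so that cells of 1 spleen differ in the receptors they carry. The CD94 (Klrd1) and NKG2 (Klrc1, Klrc2) proteins form heterodimers that bind the nonclassical class I molecule Qa-1 (H2-T23). NKG2D (Klrk1) binds stress-induced ligands such as those encoded by Raet1e, Ulbp1 and H60b.

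All 10 genes lay on chromosome 6 within 1454.84 kb, from 128778485 to 130233322 (GENCODE vM21 on GRCm38), in the order Klrb1c, Klre1, Klrd1, Klrk1, Klrc2, Klrc1, Klra4, Klra8, Klra9 and Klra7. Klre1 and Klrd1 are on the plus strand and the other 8 on the minus strand, and none overlapped another counted gene. Klra4 spans 130043731 to 130067271, and Klra8 spans 130115226 to 130129898. Near-identical copies can split reads, so each member's annotated transcripts were cut into all runs of 90 bases and searched in those of the other genes. Klrc1 shared 18.6% of its runs with Klrc2, and Klrc2 shared 8.75% of its own with other genes. The 4 Klra members shared between 0% and 2.43%, Klrb1c shared 0.624%, and Klrd1, Klre1 and Klrk1 shared none.

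The promoters of the 4 Klra members are shown because these genes varied together and apart in the cells described here. Each window runs from 250 bases before to 50 bases after a RefSeq start site (GRCm38.p6), 5′ to 3′ on the gene's strand. Klra7 and Klra8 had 2 such windows each, and the one that aligned best to the Klra4 window was used. Capitals mark TTTCCTCTTTT, the longest run that all 4 chosen windows contained, at 11 bases. It was in 1 of the 2 Klra7 windows and in 2 of 2 for Klra8. The run and the identities below thus belong to windows chosen for likeness to Klra4.
Klra4 (chr6:130067222-130067521, minus strand): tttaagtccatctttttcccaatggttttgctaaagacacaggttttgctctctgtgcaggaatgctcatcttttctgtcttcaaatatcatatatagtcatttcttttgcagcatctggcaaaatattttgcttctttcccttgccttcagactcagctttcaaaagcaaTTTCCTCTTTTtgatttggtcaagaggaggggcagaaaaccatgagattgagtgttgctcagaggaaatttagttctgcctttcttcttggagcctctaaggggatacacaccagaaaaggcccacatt
Klra7 (chr6:130233273-130233572, minus strand): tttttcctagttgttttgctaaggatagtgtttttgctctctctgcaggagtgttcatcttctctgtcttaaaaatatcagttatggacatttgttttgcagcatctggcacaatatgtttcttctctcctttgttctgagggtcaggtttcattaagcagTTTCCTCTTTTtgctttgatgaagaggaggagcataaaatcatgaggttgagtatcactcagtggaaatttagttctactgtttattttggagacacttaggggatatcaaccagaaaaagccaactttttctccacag
Klra8 (chr6:130129849-130130148, minus strand): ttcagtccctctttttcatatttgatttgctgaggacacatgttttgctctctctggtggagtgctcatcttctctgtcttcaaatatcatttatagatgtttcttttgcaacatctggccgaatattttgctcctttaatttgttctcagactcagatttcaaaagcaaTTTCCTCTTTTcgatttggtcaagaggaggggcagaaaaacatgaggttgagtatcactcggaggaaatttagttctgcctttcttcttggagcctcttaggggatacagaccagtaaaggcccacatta
Klra9 (chr6:130193063-130193362, minus strand): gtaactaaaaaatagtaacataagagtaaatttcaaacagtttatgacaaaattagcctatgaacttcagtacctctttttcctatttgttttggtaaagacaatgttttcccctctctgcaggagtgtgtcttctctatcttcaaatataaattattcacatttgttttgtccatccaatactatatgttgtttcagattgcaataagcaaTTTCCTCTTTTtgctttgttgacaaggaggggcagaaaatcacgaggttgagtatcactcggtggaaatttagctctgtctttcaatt
The windows of Klra4 and Klra8, which encode the activating receptors, were identical at 86.6% of 299 aligned bases. The other 5 pairs ranged from 78.1% (Klra4 and Klra9) to 83.6% (Klra8 and Klra9). The capital run stood 68 bases before the start site in Klra4, 69 in Klra8, 78 in Klra7 and 27 in Klra9. Searched on both strands, it was in 49 of 32851 RefSeq windows of this length (0.149%) and in none of the other 5 members that had a window.

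The next 3 windows belong to the members with the highest ratios of the Ang II to the whole control library below. Capitals mark TGTGGT or its reverse complement ACCACA, the core letters bound by RUNX factors, which are known regulators of NK cell genes.
Klrc1 (chr6:129678924-129679223, minus strand): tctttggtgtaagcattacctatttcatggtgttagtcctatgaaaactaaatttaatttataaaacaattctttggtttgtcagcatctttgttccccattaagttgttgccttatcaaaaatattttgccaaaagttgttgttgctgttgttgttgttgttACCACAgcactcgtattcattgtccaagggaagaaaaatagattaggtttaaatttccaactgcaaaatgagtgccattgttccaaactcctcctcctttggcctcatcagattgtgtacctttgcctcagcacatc
Klrc2 (chr6:129660547-129660846, minus strand): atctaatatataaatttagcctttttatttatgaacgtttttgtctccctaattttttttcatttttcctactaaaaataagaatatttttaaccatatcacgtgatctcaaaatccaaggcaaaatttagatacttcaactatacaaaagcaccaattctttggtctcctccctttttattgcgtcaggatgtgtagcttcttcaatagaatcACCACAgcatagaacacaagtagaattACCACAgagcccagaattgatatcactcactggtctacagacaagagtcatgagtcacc
Klrk1 (chr6:129623815-129624114, minus strand): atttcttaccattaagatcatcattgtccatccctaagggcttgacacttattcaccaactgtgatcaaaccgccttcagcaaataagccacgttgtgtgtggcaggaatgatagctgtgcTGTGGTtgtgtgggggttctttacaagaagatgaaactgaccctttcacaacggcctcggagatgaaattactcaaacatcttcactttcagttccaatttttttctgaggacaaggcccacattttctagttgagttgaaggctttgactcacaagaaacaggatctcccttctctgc
Klrc2 held 2 matches and Klrc1 and Klrk1 held 1 each. The letters were found on either strand in 5 of the 9 members with a window (Klrb1c, Klrc1, Klrc2, Klre1 and Klrk1), in 0 of the 4 Klra members and in 16.8% of all windows. The T-box letters TCACAC, which do not overlap the RUNX letters, were found only in Klre1 among the 9, against 14.5% of all windows. Klrd1 had no window in the table used. A match is a description of letters and not a bound site.

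NK cells were taken as cells with 2 or more UMIs summed over Ncr1, Gzma, Prf1 and Eomes and no UMI of Cd3e or Cd79a. This gave 538 of 15700 kept cells in the control library (3.43%), 371 of 14023 in the Ang II library (2.65%) and 573 of 16708 in the B6.SLE123 library (3.43%). Their median depth was 1694, 2458 and 1314 UMIs in that order, so shares of cells with a UMI are also given after thinning each cell to 1000 UMIs, which left 491, 352 and 423 cells. Nkg7, a granule gene that the definition did not use, had a UMI in 96.8% to 98.1% of these cells. Of the T cell genes, Trac was at no more than 5.91 CPM (UMIs of a gene per 1000000 summed UMIs) and Cd4 and Cd8a at no more than 0.985 CPM. The 9-gene T cell list summed to 235 to 351 CPM, most of it Trbc1 and Trbc2. The 8-gene list of type 1 innate lymphoid cells summed to 81.0 to 151 CPM, with Cxcr6 and Itga1 at 0 in the B6.SLE123 library. Hashtag C0303 of the B6.SLE123 library stood apart. Its 50 NK cells were 1.68% of its kept cells, and it held the highest levels of the neutrophil list (17705 CPM), the B cell list (5588 CPM) and the erythroid list (3218 CPM). Over whole libraries the neutrophil list was at 472, 590 and 5471 CPM in NK cells. C0303 held 111326 of the 855362 NK cell UMIs of the B6.SLE123 library, so most neutrophil-list UMIs lay in its other NK cells. Values given without C0303 below therefore do not remove the neutrophil signal. A UMI of Xist was in 49.2% to 51.7% of kept cells of control hashtags C0304 to C0306 (Xist-high below, 263 NK cells) and in at most 0.386% of those of C0301 to C0303 (Xist-low, 262 NK cells). It was in 0% of cells in the Ang II library and in 46.6% to 54.9% in the B6.SLE123 library, so Xist-low control populations match the former and Xist-high ones the latter. The male control mice had a sham minipump, so sex and minipump cannot be told apart in this split of the control library. Between 304 and 349 kept barcodes were shared by each pair of libraries, including 1 NK barcode.

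At least 1 of the 10 receptors was detected in nearly every NK cell. A UMI of any member was present in 99.4% of NK cells of the control library, 99.5% of the Ang II library and 99.3% of the B6.SLE123 library. Together the 10 genes made up 7070 CPM in the control library (95% interval 6908 to 7235), 7313 CPM in Ang II NK cells (7148 to 7482) and 6666 CPM in B6.SLE123 NK cells (6494 to 6842). Klrb1c, Klre1, Klrd1 and Klrk1 were each seen in 64.7% to 89.8% of NK cells. The 4 Klra genes, Klrc1 and Klrc2 were each seen in 28.1% to 65.5%. All intervals are exact 95% intervals that cover counting error only, and with 1 library per group no difference between groups was tested.

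**Figure D1:**
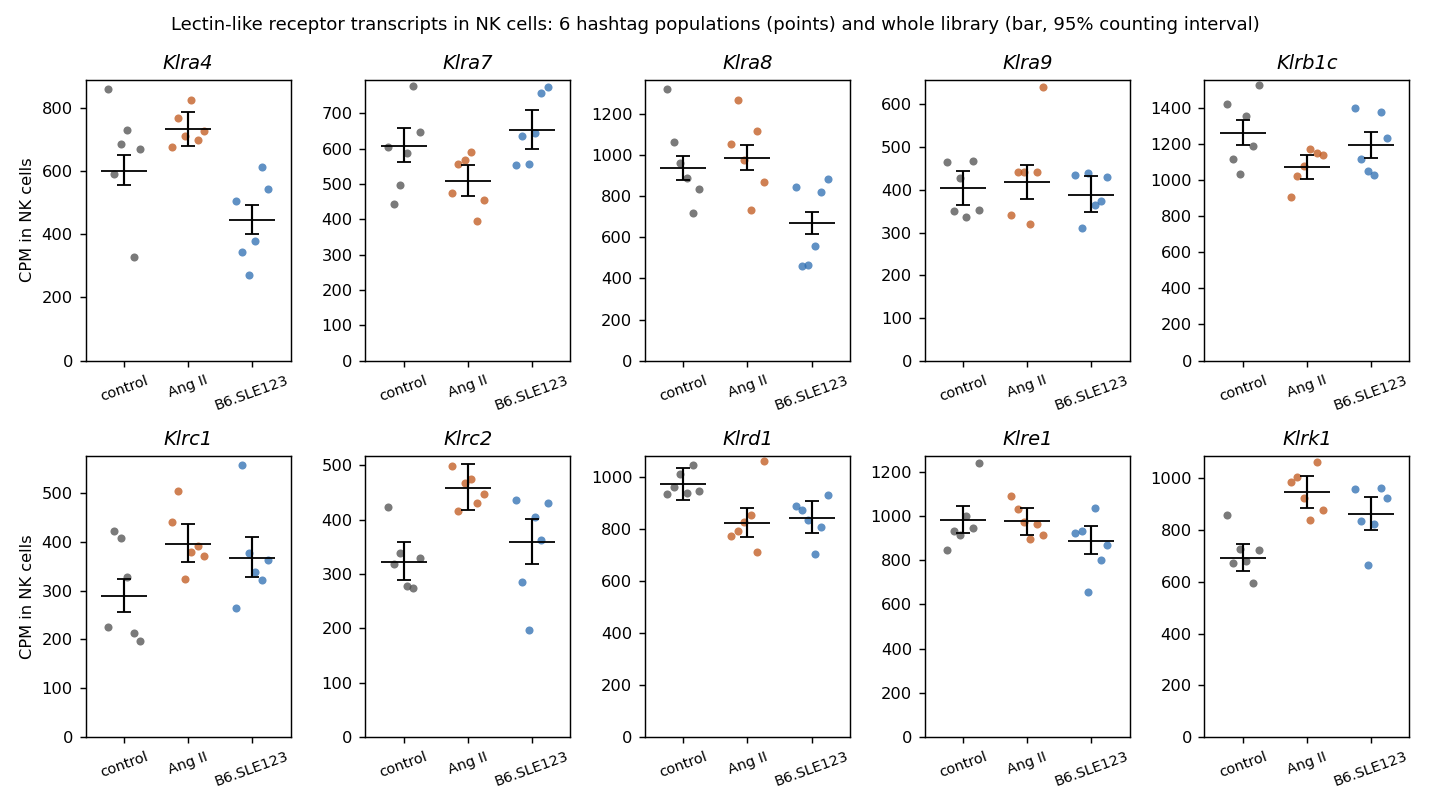
Level of each receptor gene in NK cells (CPM, linear axis from 0) in control, Ang II and B6.SLE123 NK cells. Points are the 6 hashtag populations of a library, in the order C0301 to C0306, and black bars are the whole library with its 95% Poisson interval. Klrd1 in the B6.SLE123 library has all 6 points below the lowest control point, as do 6.38% of genes with 500 or more UMIs.

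None of the 10 members differed by 2-fold or more from the control library in either comparison. Against that, 3.04% of the 7628 genes with 20 or more UMIs in NK cells were 2-fold or more higher in the B6.SLE123 library and 1.93% were 2-fold or more lower. In the Ang II comparison, which shares the control library, 3.1% of 7844 genes were higher by that fold and 1.2% lower. The member ratios ran from -0.49 to 0.35 on the log2 scale in the B6.SLE123 comparison, with a median of -0.068 beside a median of 0.038 over all genes tested. For Ang II they ran from -0.26 to 0.51, with a median of 0.062 beside 0.077 over all genes. Counting intervals lay above 0 for 2 members and below 0 for 4 in the first comparison, and above 0 for 4 and below 0 for 3 in the second. Over all genes such intervals lay above 0 for 7.94% and below 0 for 5.19% in B6.SLE123, and above 0 for 8.94% and below 0 for 5.93% in Ang II. All 10 members had 500 or more UMIs, and among genes with as many the shares were 20.9% above and 24.8% below in B6.SLE123, and 23% above and 35.4% below in Ang II, so that such intervals were common at this depth. These counts and shares used the whole control library. Against the matching Xist-high populations, B6.SLE123 intervals lay above 0 for Klrc1, Klrc2 and Klrk1. They lay below 0 for Klra4, Klra8, Klrb1c, Klrd1 and Klre1. Ang II intervals against the Xist-low populations lay above 0 for Klrc2 and Klrk1 and below 0 for Klra8, Klrb1c and Klrd1. Shares of intervals over all genes were not taken against these populations, so these members cannot be told from other genes at this depth. A second measure asked whether all 6 hashtag populations of a library lay outside the control range. In the B6.SLE123 comparison 0.878% of genes lay wholly above and 0.865% wholly below. For Ang II the shares were 0.829% above and 0.79% below. Among genes with 500 or more UMIs the shares were 2.9% above and 6.38% below for B6.SLE123, and 3.98% above and 7.23% below for Ang II. By this measure 1 of the 10 members lay outside the control range in the B6.SLE123 library and 0 of 10 in the Ang II library, counts near these shares.

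**Figure D2:**
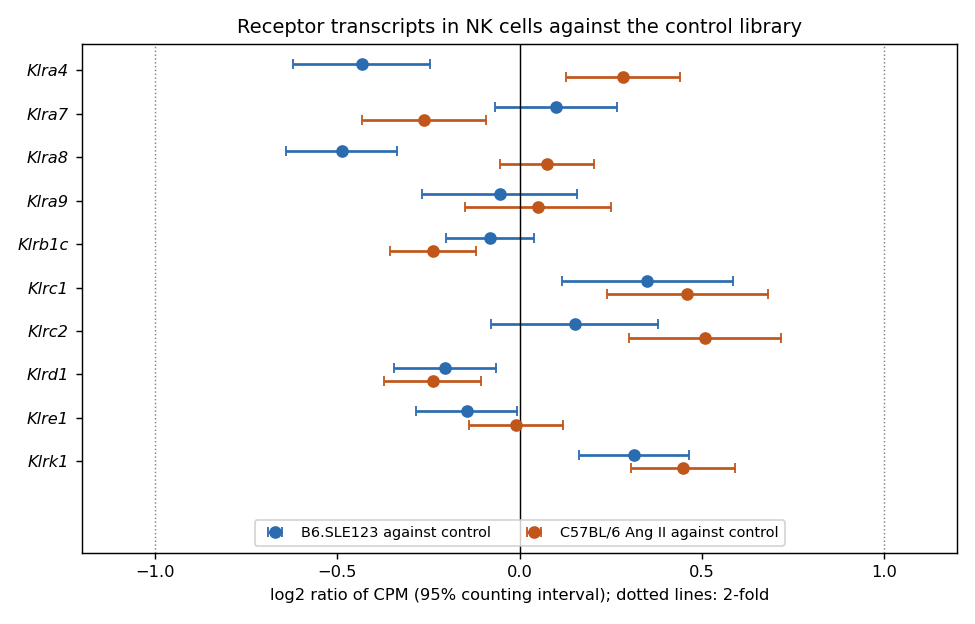
Log2 ratio of CPM in NK cells of the B6.SLE123 library (blue) and the Ang II library (orange) against the whole control library, Xist-high and Xist-low populations together, with exact 95% counting intervals. No receptor reached the dotted 2-fold lines; Klra4 and Klra8 lie lowest in B6.SLE123, and Klrc2, Klrc1 and Klrk1 highest in Ang II.

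Klra8 encodes Ly49H, the activating receptor that recognises the m157 protein of mouse cytomegalovirus. It was at 937 CPM in control NK cells (879 to 998), 987 CPM in Ang II NK cells (927 to 1050) and 669 CPM in B6.SLE123 NK cells (615 to 726). The populations ran from 721 to 1324 CPM (median 927) in the control library, from 731 to 1271 CPM (median 1017) in the Ang II populations, and from 460 to 886 CPM (median 688) in those of B6.SLE123. The ranges overlapped, but 3 of the 6 B6.SLE123 populations lay below every control population and none lay above. The log2 ratio of B6.SLE123 to control was -0.49 (-0.64 to -0.34), and after thinning a Klra8 UMI was found in 35.7% of B6.SLE123 and 45.1% of control NK cells. Leaving out B6.SLE123 hashtag C0303 gave -0.42 (-0.58 to -0.27). Within the control library Klra8 was at 1123 CPM in the Xist-low and 795 CPM in the Xist-high populations. The ranges of these 3 and 3 populations did not overlap, but no share over all genes was taken for this split. Against the matching Xist-high populations the B6.SLE123 ratio was -0.25 (-0.43 to -0.066), and against the Xist-low ones -0.75. Its Ang II log2 ratio of 0.07 (-0.05 to 0.20) did not exclude 0, and became -0.19 (-0.34 to -0.031) against the matching Xist-low populations and 0.31 against the Xist-high ones.

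Klra4 encodes Ly49D, the other activating Ly49 receptor among the members. It was at 601 CPM in control NK cells (555 to 651), 732 CPM in Ang II NK cells (680 to 786) and 445 CPM in B6.SLE123 NK cells (402 to 492). Populations ran from 329 to 859 CPM (median 678) in the control library, from 676 to 826 CPM (median 718) in the Ang II populations, and from 269 to 612 CPM (median 441) in those of B6.SLE123. A single control population, C0305, was low at 329 CPM, and the other 5 were at 592 CPM or more. The B6.SLE123 ratio was -0.43 on the log2 scale (-0.62 to -0.25), moving to -0.63 without that control population and to -0.35 without B6.SLE123 hashtag C0303. The Ang II ratio was 0.28 (0.13 to 0.44) and dropped to 0.084 (-0.079 to 0.25) without control C0305, so that its sign against the counting error rested on 1 population. Klra4 was at 694 CPM in the Xist-low and 525 CPM in the Xist-high control populations. Against the matching ones the B6.SLE123 ratio was -0.24 (-0.46 to -0.011) and the Ang II ratio 0.077 (-0.11 to 0.27). After thinning, Klra4 was found in 35.7% of the NK cells in the control, 41.0% in the Ang II and 29.2% in the B6.SLE123 library.

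The inhibitory Ly49 members showed other patterns. Klra7 encodes Ly49G and stood at 609 CPM in control NK cells (562 to 659), 508 CPM in Ang II NK cells (465 to 554) and 652 CPM in B6.SLE123 NK cells (599 to 709). Its control populations ran from 444 to 776 CPM, the Ang II populations from 397 to 591 CPM and the B6.SLE123 populations from 555 to 774 CPM, so all 3 ranges overlapped. The Ang II ratio was -0.26 on the log2 scale (-0.43 to -0.09) and -0.13 (-0.31 to 0.062) without control C0305, the population with the highest Klra7 and the lowest Klra4. The B6.SLE123 ratio of 0.099 had an interval that included 0 (-0.069 to 0.27), and without control C0305 it was 0.23 (0.050 to 0.42). Klra7 was at 505 CPM in the Xist-low and 694 CPM in the Xist-high control populations, and against the matching ones both intervals included 0, with ratios of 0.0099 (-0.22 to 0.24) in Ang II and -0.089 (-0.28 to 0.10) in B6.SLE123. Klra9 encodes Ly49I and was at 403, 418 and 388 CPM in control, Ang II and B6.SLE123 NK cells, with both log2 ratios within 0.06 of 0. Its intervals for the log2 ratio were -0.27 to 0.16 in the B6.SLE123 comparison and -0.15 to 0.25 in the Ang II comparison. With the limits on cells read as UMIs instead of genes, the Ang II ratio was 0.44 (0.23 to 0.65). The highest Klra9 value was 641 CPM, in Ang II hashtag C0306.

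Summed over the 4 Klra members, the level was 2551 CPM in control NK cells (2454 to 2651), 2644 CPM in Ang II NK cells (2545 to 2746) and 2155 CPM in B6.SLE123 NK cells (2057 to 2255). The B6.SLE123 populations ran from 1734 to 2632 CPM and the control populations from 2294 to 3255 CPM, with 3 B6.SLE123 populations below the control range. The log2 ratio of the sum was -0.24 (-0.33 to -0.16) for B6.SLE123, or -0.20 without hashtag C0303, and 0.052 (-0.027 to 0.13) for Ang II. For B6.SLE123 against Xist-high and Ang II against Xist-low control populations the sum gave -0.17 (-0.27 to -0.062) in the former and -0.042 (-0.14 to 0.055) in the latter. With the cell limits read as UMIs the Ang II value was 0.14 (0.051 to 0.23). Within the sum, the activating genes Klra4 and Klra8 had intervals below 0 in B6.SLE123, and those of the inhibitory genes Klra7 and Klra9 included 0. This describes these 4 genes only. Of the Klra genes outside the members, the most abundant, Klra3, was also below 0 in B6.SLE123 (-0.32, -0.63 to -0.014). Klra1 was at -0.0049 (-0.37 to 0.36).

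Klrd1 encodes CD94, the shared subunit of the NKG2A and NKG2C receptors. It was at 972 CPM in control NK cells (913 to 1035), 824 CPM in Ang II NK cells (769 to 882) and 844 CPM in B6.SLE123 NK cells (784 to 908). The 6 control populations were close together, from 937 to 1046 CPM (median 955). The B6.SLE123 populations ran from 703 to 932 CPM (median 855), all below the control range, although the nearest values, 932 and 937 CPM, differed by less than their counting errors. In the Ang II library 5 populations, from 711 to 853 CPM, lay below the control range and 1, at 1063 CPM, lay above it. The log2 ratio was -0.20 (-0.34 to -0.06) in B6.SLE123 and -0.24 (-0.37 to -0.10) in Ang II. It was -0.23 in both against the matching control populations (-0.39 to -0.068 and -0.40 to -0.061). Of the 10 members, Klrd1 was the 1 gene whose populations did not overlap in the B6.SLE123 comparison. Among all genes with 500 or more UMIs, 6.38% lay wholly below and 2.9% wholly above, so 1 of 10 is near the share over all genes.

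Klrc1 encodes NKG2A, the inhibitory partner of CD94. Its level was 288 CPM in control NK cells (256 to 323), 396 CPM in Ang II NK cells (358 to 437) and 367 CPM in B6.SLE123 NK cells (328 to 410). Control populations ran from 196 to 421 CPM (median 276), Ang II populations from 324 to 503 CPM (median 385) and B6.SLE123 populations from 265 to 558 CPM (median 351). The ranges overlapped, with 2 Ang II populations and 1 B6.SLE123 population above every control population. The log2 ratio was 0.46 (0.24 to 0.68) in Ang II and 0.35 (0.12 to 0.58) in B6.SLE123. The latter was 0.18 (-0.080 to 0.43) without B6.SLE123 hashtag C0302, its highest population, and 0.23 (-0.013 to 0.48) without control C0305. Control Klrc1 was at 359 CPM in the Xist-low and 233 CPM in the Xist-high populations. Against the matching ones the Ang II ratio of 0.14 (-0.12 to 0.41) did not exclude 0, and the B6.SLE123 ratio was 0.66 (0.35 to 0.96). Crossed, they were 0.76 (0.47 to 1.06) and 0.034 (-0.24 to 0.31), so the Klrc1 ratios turned on which control populations were used. Thinned to equal depth, 20.6% of the NK cells in the control, 24.4% in the Ang II and 24.6% in the B6.SLE123 library had a Klrc1 UMI.

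Klrc2 encodes NKG2C, the activating partner of CD94. It was at 322 CPM in control NK cells (288 to 359), 458 CPM in Ang II NK cells (417 to 501) and 358 CPM in B6.SLE123 NK cells (319 to 400). The Ang II populations were tight, from 415 to 499 CPM (median 457), and 5 of the 6 lay above the control range of 273 to 423 CPM (median 324). The B6.SLE123 populations ran from 198 to 435 CPM, the lowest being hashtag C0303. The log2 ratio was 0.51 (0.30 to 0.72) in Ang II, the highest of the 10 members in that comparison, and 0.15 (-0.078 to 0.38) in B6.SLE123. Against the matching control populations it was 0.37 (0.11 to 0.64) in Ang II and 0.29 (0.012 to 0.58) in B6.SLE123. A UMI was found in 34.9% of Ang II and 26.7% of control NK cells after thinning.

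Klrk1 encodes NKG2D. It was at 694 CPM in control NK cells (644 to 747), 946 CPM in Ang II NK cells (887 to 1008) and 863 CPM in B6.SLE123 NK cells (802 to 927). Control populations ran from 594 to 859 CPM (median 701), Ang II populations from 839 to 1063 CPM (median 955) and B6.SLE123 populations from 665 to 964 CPM (median 881). All but 1 of the Ang II populations and 3 of the B6.SLE123 populations exceeded every control population. The log2 ratio was 0.45 (0.31 to 0.59) in Ang II and 0.31 (0.16 to 0.46) in B6.SLE123, and it was 0.36 without B6.SLE123 hashtag C0303. Against the matching control populations it was 0.35 (0.17 to 0.53) in Ang II and 0.40 (0.22 to 0.59) in B6.SLE123. The thinned share was 50.7% in the control, 60.2% in the Ang II and 57.2% in the B6.SLE123 library.

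Klrb1c encodes NK1.1, the activating receptor used to identify NK cells in C57BL/6 mice. Its levels were 1261 CPM in control NK cells (1193 to 1332), 1070 CPM in Ang II NK cells (1008 to 1136) and 1192 CPM in B6.SLE123 NK cells (1120 to 1268). Control populations ran from 1034 to 1524 CPM, Ang II populations from 907 to 1169 CPM and B6.SLE123 populations from 1029 to 1400 CPM. All 3 ranges overlapped, with 2 Ang II populations below the control range. The log2 ratio was -0.24 (-0.35 to -0.12) in Ang II and -0.081 (-0.20 to 0.039) in B6.SLE123. With the cell limits read as UMIs the Ang II ratio was -0.081 and its interval included 0 (-0.21 to 0.050). Against the matching control populations it was -0.16 (-0.30 to -0.0049) in Ang II and -0.16 (-0.30 to -0.019) in B6.SLE123. Klre1, whose product pairs with KLRI1 or KLRI2, was at 981, 975 and 887 CPM in control, Ang II and B6.SLE123 NK cells. Its B6.SLE123 ratio of -0.14 (-0.28 to -0.0075) was -0.090 (-0.23 to 0.052) without hashtag C0303 and -0.25 (-0.40 to -0.086) against the Xist-high control populations. In Ang II its log2 ratio was -0.0092 (-0.14 to 0.12), and 0.11 (-0.054 to 0.28) against the Xist-low ones.

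The adaptors through which the activating members signal were lower than in the control library in both other libraries. Tyrobp, encoding DAP12, was at 5243 CPM in the control, 4197 CPM in the Ang II and 4480 CPM in the B6.SLE123 library. Its log2 ratio was -0.32 (-0.38 to -0.26) in Ang II and -0.23 (-0.29 to -0.17) in B6.SLE123, with no overlap of populations in either. Fcer1g, the Fc receptor gamma chain, was at 3966, 3284 and 2915 CPM in control, Ang II and B6.SLE123 NK cells, with log2 ratios of -0.27 in Ang II and -0.44 in B6.SLE123 and again no overlap of populations. Hcst, encoding DAP10, the adaptor of NKG2D, was at 1059, 810 and 897 CPM in the same order, with log2 ratios of -0.39 in Ang II and -0.24 in B6.SLE123 and overlapping populations. Against the matching control populations the 3 adaptors had ratios of -0.34, -0.28 and -0.43 in Ang II and -0.21, -0.44 and -0.20 in B6.SLE123, in the order just given. Wholly lower populations were found for 6.38% of genes with 500 or more UMIs in B6.SLE123 and 7.23% in Ang II, as given above. Klrk1 and Hcst had ratios of opposite sign in both comparisons.

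The receptor system was further described by a list of 48 genes, the 3 adaptors included, that took in signalling proteins, ligands, other lectin-like receptors and other NK receptors. In NK cells 37 of them had enough UMIs in the B6.SLE123 comparison, of which 2 were 2-fold or more higher and 1 was 2-fold or more lower. Of the 36 with enough UMIs in the Ang II comparison, 1 was higher and 1 lower by that fold. These counts are near the shares over all genes given above, 3.04% higher and 1.93% lower in B6.SLE123 and 3.1% and 1.2% in Ang II. In B6.SLE123, Sh2d1b1, the adaptor EAT-2 of SLAM family receptors, was at 81.8 CPM against 32.2 CPM in the control library (log2 ratio 1.35, 0.73 to 1.99), and its populations did not overlap. Against the Xist-high control populations its ratio was 0.95 (0.26 to 1.70). The other B6.SLE123 genes past 2-fold rested on few UMIs: Klra5 had 17 against 7 UMIs (log2 ratio 1.54, 0.20 to 3.05) and Klra10 had 10 against 24 UMIs (-1.003, -2.23 to 0.11). In Ang II, Klrc3, which encodes NKG2E, was at 76.8 CPM against 36.1 CPM (log2 ratio 1.09, 0.51 to 1.69) with no overlap of populations. Klrg1, an inhibitory receptor of mature NK cells, was at 128 CPM in Ang II and 277 CPM in the control library (log2 ratio -1.11, -1.43 to -0.81), with overlapping populations, and its ratio was -0.58 (-0.98 to -0.17) against the Xist-low control populations. Among the ligands, Raet1e was not detected in NK cells, and in B cells it had 31 UMIs in the B6.SLE123 and 4 UMIs in the control library (log2 ratio 2.68, 1.18 to 4.65). These are 0.940 and 0.146 CPM, within the 0.121 to 1.58 CPM given below for the receptors in B cells. No share of genes past 2-fold was taken in B cells. The 8-gene early NK list summed to 1626, 2369 and 1535 CPM and the 9-gene late NK list to 3431, 2712 and 3270 CPM in control, Ang II and B6.SLE123 NK cells. Their part in the receptor ratios was not tested, nor was that of the neutrophil list, which was higher in the B6.SLE123 library.

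Transcripts of the 10 genes were concentrated in the NK cells. The B cells, neutrophils and myeloid cells below were gated to have no UMI of the genes that define NK cells. In B cells, a class known to lack these receptors, each member was at 0.121 to 1.58 CPM and had a UMI in at most 0.298% of cells, with a median depth of 1796 to 2778 UMIs. The highest, Klrd1 in the B6.SLE123 library, had 52 UMIs in 32 of 12686 B cells, so some of these cells held more than 1. In neutrophils no member exceeded 2.29 CPM. Klrd1 was the member seen most widely. Myeloid cells with 5 or more Cst3 UMIs had Klrd1 at 79.8 CPM in the control (67.7 to 93.5), 93.4 CPM in the Ang II and 64.0 CPM in the B6.SLE123 library, and a UMI in 8.12% to 16.9% of cells at a median depth of 2256 to 5032 UMIs. Klrk1 was also above the B cell level there, at 10.9 to 24.9 CPM, whereas the other 8 members were at no more than 1.32 CPM. Since Klrd1 and Klrk1 were present without the other 8, the myeloid signal was not in the ratio found in NK cells.

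The few T cells left after depletion numbered 11 in the control, 242 in the Ang II and 9 in the B6.SLE123 library. Klrd1 was at 142 CPM and had a UMI in 28.9% of T cells in the Ang II library, which held the most, and the other 9 members were at 0 to 28.1 CPM. Klra8 had no UMI in the T cells of any library. T cells with 2 or more UMIs of the NK genes numbered 5, 18 and 6. In the 5 control cells of this kind Klra7 reached 1278 CPM (770 to 1996) from 19 UMIs, and again no library held a Klra8 UMI in this class. These classes are too small for a comparison between libraries.

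**Figure D3:**
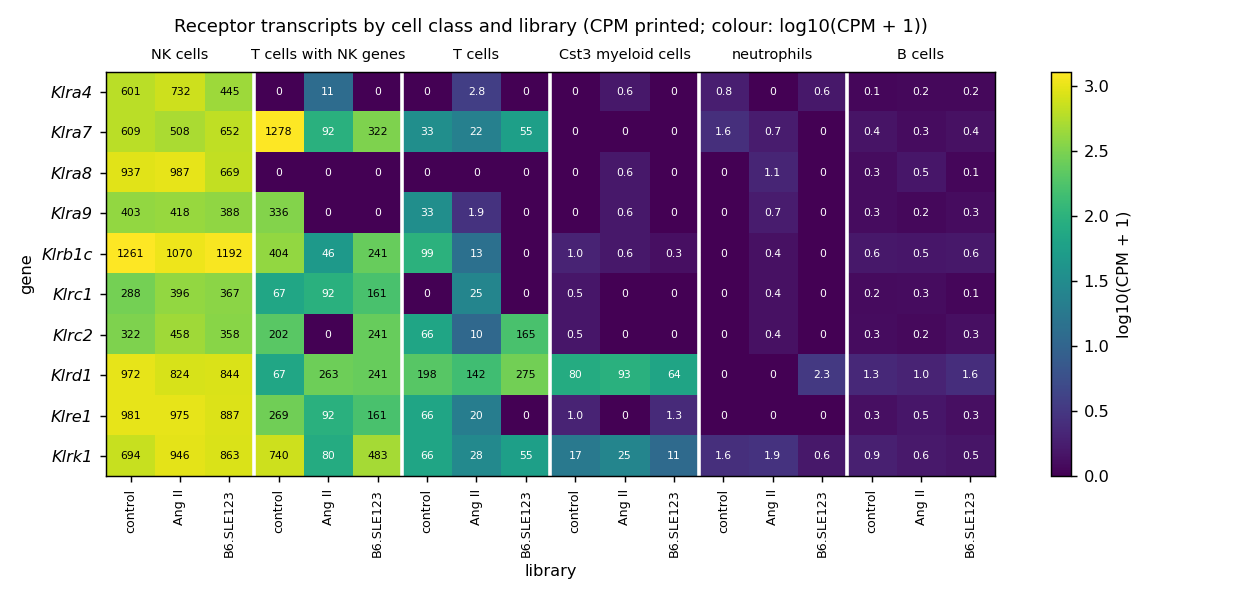
Level of each receptor gene (CPM printed in each cell, colour on a log10(CPM + 1) scale) in 6 cell classes of the 3 libraries. NK cells carry all 10 genes; Klrd1 is also at 64.0 to 93.4 CPM in Cst3 myeloid cells, and B cells are at 0.121 to 1.58 CPM.

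How many receptors a single NK cell carried was counted after thinning to 1000 UMIs. Of the 4 Klra genes, control NK cells had a mean of 1.47 detected, Ang II NK cells 1.55 and B6.SLE123 NK cells 1.30. In the control library the mean was 1.49 in the Xist-low and 1.44 in the Xist-high populations. None of the 4 was detected in 17.2%, 18.0% and 22.7% of these cells, in that order. All 4 were detected in 1.60%, 2.36% and 1.89%. Of all 10 members a cell had a mean of 4.38, 4.52 and 4.26 detected. Cells with Klrc1 and none of the 4 Klra genes made up 6.79% of the NK cells in the control, 8.15% in the Ang II and 7.14% in the B6.SLE123 library. Cells with neither made up 10.4%, 9.87% and 15.6%. These shares are of detected transcripts at that depth and not of cells that carry the receptor.

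Pairs of receptors were compared by how often both genes were detected in 1 NK cell. For each of the 45 pairs, the share of cells with both genes was divided by the product of the 2 single shares, a ratio that is 1 when detection of one gene is unrelated to that of the other. In 18 pairs this ratio was above 1 in all 3 libraries, in 7 it was below 1 in all 3, and in 20 it lay on both sides of 1. Some counted pairs were close to 1, such as Klra7 and Klre1 (1.001 to 1.04) and Klrd1 and Klrk1 (0.982 to 0.997). No counting error and no share over pairs of other genes was taken, so these counts are a description only. The lowest ratio belonged to Klra4 and Klrc1, at 0.465 to 0.524. Klrc1 and Klrc2, the inhibitory and activating partners of CD94, gave 0.544 to 0.652. The ratio of Klrc1 was also below 1 with Klra7 (0.709 to 0.874) and Klra8 (0.710 to 0.916), whereas with Klra9 it was 0.919 to 1.03. Some pairs of activating genes were above 1 throughout, at 1.16 to 1.21 for Klra4 and Klra8, 1.12 to 1.27 for Klra4 and Klrc2, and 1.07 to 1.21 for Klra8 and Klrc2. Others were not, such as Klrc2 and Klrk1 at 0.972 to 1.05 and Klra4 and Klrb1c at 0.982 to 1.06. Pairs of an activating with an inhibitory gene were as high, at 1.08 to 1.33 for Klra4 and Klra7 and 1.09 to 1.14 for Klra7 and Klrc2. Klra9 was below 1 with the other inhibitory Ly49 gene, Klra7 (0.792 to 0.948), and also with the activating gene Klra4 (0.841 to 0.969). With Klra8 it was at 1.03 to 1.08. Pairs among Klrb1c, Klrd1, Klre1 and Klrk1 stayed between 0.971 and 1.05. Klrc1 and Klrc2 share sequence over their whole transcripts, as given above. How reads from the shared runs were counted in this 5′ assay was not examined, and their part in the ratio of this pair was not tested.

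**Figure D4:**
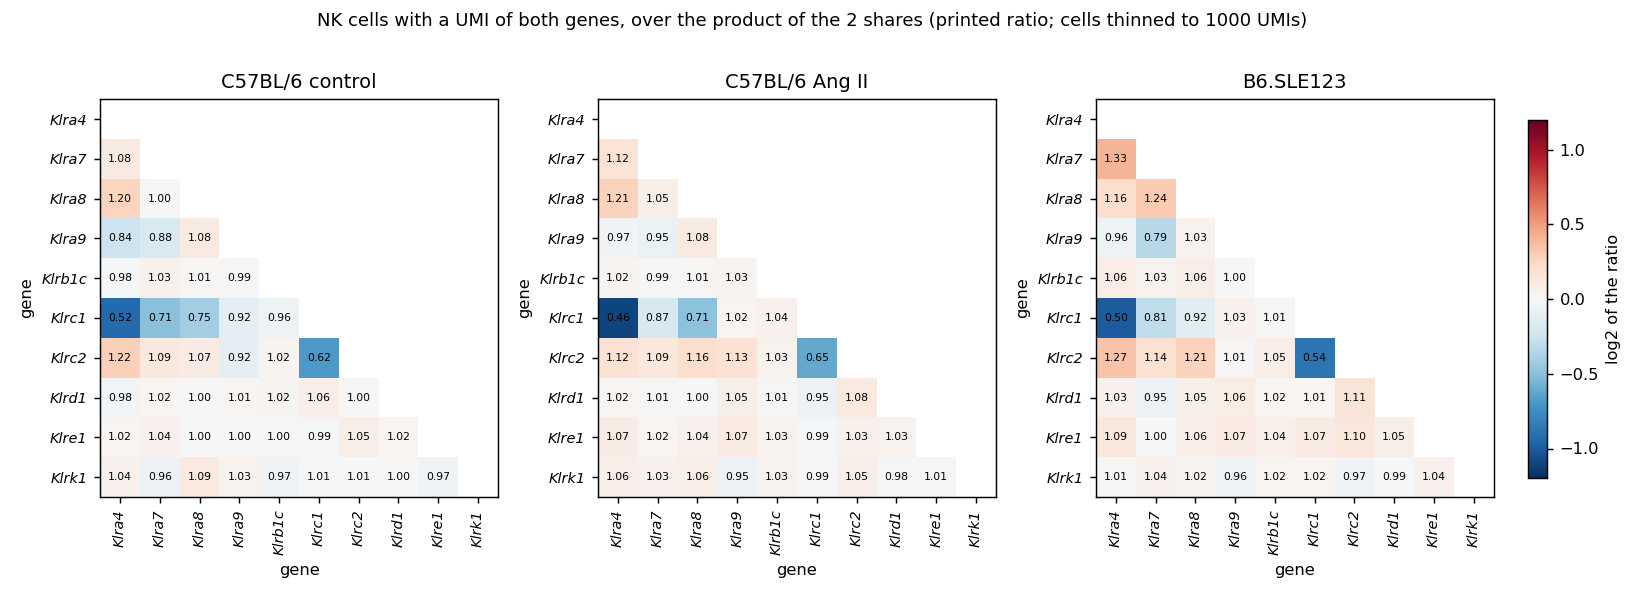
Share of NK cells with a UMI of both genes over the product of the 2 single shares, for 45 pairs in each library, after thinning cells to 1000 UMIs (ratio printed, colour on a log2 scale). The blue squares of Klrc1 with Klra4 (0.465 to 0.524) and with Klrc2 (0.544 to 0.652) recur in all 3 libraries.

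The low pair ratios of Klrc1 were followed further by splitting the NK cells on a Klrc1 UMI, using all UMIs of the cells. Cells with a Klrc1 UMI numbered 151 in the control, 140 in the Ang II and 180 in the B6.SLE123 library, and those without numbered 387, 231 and 393. The cells with Klrc1 were somewhat deeper, with median UMIs of 1733 against 1650, 2711 against 2307, and 1445 against 1288. In the control library Klra4 was at 221 CPM in cells with Klrc1 and 765 CPM in cells without (log2 ratio -1.79, -2.18 to -1.43). In the Ang II library the log2 ratio was -1.45 (-1.71 to -1.19). In the B6.SLE123 library it was at 261 against 546 CPM (-1.07, -1.44 to -0.70), or -0.82 without hashtag C0303.

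Klrc2 was lower in cells with Klrc1, with log2 ratios of -1.01 (-1.45 to -0.60), -1.16 (-1.47 to -0.85) and -1.56 (-2.03 to -1.11), control first and B6.SLE123 last. Klra8 gave -0.74 (-0.98 to -0.52), -1.06 (-1.27 to -0.86) and -0.74 (-1.03 to -0.47). The sum of the 4 Klra genes was lower too, with log2 ratios of -0.81, -0.85 and -0.61. Klra7 ranged from -0.88 in the control to -0.19 in the Ang II library, where its interval included 0. Klra9 was at 0.13 (-0.18 to 0.43), -0.32 (-0.61 to -0.027) and -0.18 (-0.53 to 0.15), so that its interval lay below 0 in the Ang II library only. Of the 4 Klra genes, Klra4 and Klra8 were the ones with intervals below 0 in all 3 libraries. For Klrb1c, Klrd1, Klre1 and Klrk1 every interval in the 3 libraries included 0, and the ratios lay between -0.17 and 0.13. Without B6.SLE123 hashtag C0303 the interval of Klre1 in that library lay above 0 (0.27, 0.038 to 0.49). Klrd1, the partner that NKG2A needs, was at 984 CPM in cells with and 967 CPM in cells without a Klrc1 UMI in the control library (log2 ratio 0.025, -0.17 to 0.22).

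**Figure D5:**
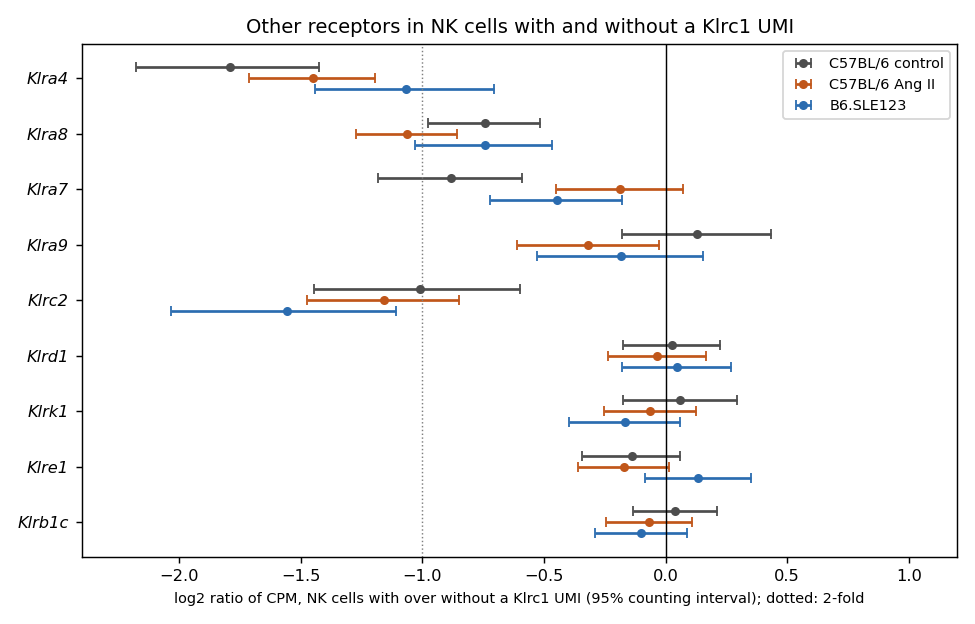
Log2 ratio of CPM in NK cells with over without a Klrc1 UMI, for the 9 other receptors in the 3 libraries, with exact 95% counting intervals. Klra4 (-1.79 to -1.07), Klrc2 (-1.56 to -1.01) and Klra8 (-1.06 to -0.74) lie below 0 in every library, and Klrb1c, Klrd1, Klre1 and Klrk1 lie about 0.

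Of 2612 genes with 50 or more UMIs in the NK cells of every library, 0 were 2-fold or more higher in cells with Klrc1 in all 3 libraries and 2 were 2-fold or more lower in all 3. These 2 were Klra4 and Klrc2. The 5 genes with the lowest ratios throughout were Klra4, Klrc2, H2-Aa, Klra8 and Klri2, of which 3 are members and Klri2 encodes a partner of KLRE1. Klri2 had log2 ratios of -0.98, -0.58 and -0.53. H2-Aa, a class II gene of B cells and antigen-presenting cells, had -0.86, -0.78 and -1.69. The 5 with the highest ratios throughout were Emb, Thy1, S100a8, S100a9 and Ppp3r1. Emb, a membrane glycoprotein gene of the early NK list, had log2 ratios of 1.18 (0.54 to 1.83), 0.76 (0.29 to 1.24) and 0.78 (0.022 to 1.53). Thy1, a surface glycoprotein of T cells and some innate lymphocytes, had 1.19, 0.99 and 0.75, the last with an interval that included 0. S100a8 and S100a9 are neutrophil genes and had 1.22 and 0.62 in the control library, 2.73 and 2.51 in the Ang II library and 0.48 and 0.44 in the B6.SLE123 library.

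The early NK list was higher in cells with Klrc1 in the C57BL/6 libraries, at log2 ratios of 0.51 (0.36 to 0.65) in the control and 0.54 (0.42 to 0.65) in the Ang II library, and was at -0.14 (-0.31 to 0.022) in the B6.SLE123 library. The late NK list gave -0.12, -0.37 and -0.032. The innate lymphoid cell list, although low, was higher in cells with Klrc1 in all 3, by 1.75 (1.09 to 2.42), 1.22 (0.70 to 1.75) and 0.53 (0.0038 to 1.05). The T cell list was at 0.59 (0.18 to 1.01) in the B6.SLE123 library, and its intervals included 0 in the other libraries. Whether these cells take part in the Klra4 and Klrc2 differences was not tested.

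Across the 6 hashtag populations of a library, a Pearson r was taken for each of the 45 pairs of members. The pairs named here were picked from them, without a background of other genes. Klra8 and Klrk1 had a Pearson r of 0.86 in the control, 0.88 in the Ang II and 0.85 in the B6.SLE123 library over 6 populations each. Klra4 and Klra8 had 0.74, -0.41 and 0.93, and Klrb1c and Klrc1 had -0.76, -0.55 and -0.51. Other pairs also changed sign between libraries, such as Klrc2 and Klrk1 (0.95, -0.41 and 0.83) and Klra4 and Klrk1 (0.88, -0.57 and 0.92). These are descriptions of 6 points that share a library, and CPM of one gene falls when others take more of the total. The populations of a library also come from 2 conditions, and in the control library from both sexes.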

How the data were processed

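Raw UMI counts of genes and hashtags by barcode were deposited, without normalization. Per the file headers they come from Cell Ranger 6.0.0. The submitters' processing notes name mm10, and the sources used here name no annotation. The 3 libraries held 44146350, 59043555 and 63516694 gene UMIs in 18218, 16062 and 20691 barcodes (control, Ang II and B6.SLE123).

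Barcodes were kept with more than 200 and fewer than 3500 genes detected, under 15% mitochondrial UMIs and at most 1 positive hashtag, by an Otsu threshold (scikit-image 0.26.0) on log counts per library. Doublets within a hashtag could not be seen. Between 8 and 29 NK cells per library carried no hashtag and are in library values only. Counts were summed per library and class and scaled to CPM. Intervals were exact Poisson for CPM, Clopper-Pearson for shares and conditional binomial for log2 ratios (scipy 1.17.1), at 95%, and cover counting error only. A count of 0 in NK cells allows up to 2.93, 2.95 and 3.51 CPM (3 counts). No test was made between groups of 1 library. Cell classes were gated on UMIs. B cells had 2 or more of Cd79a, T cells had Cd3e and Cst3 myeloid cells had 5 or more of Cst3. Neutrophils had 2 or more summed over Csf3r, Retnlg, Cxcr2 and Mmp9. B cells, neutrophils and myeloid cells had no UMI of Cd3e or of the NK genes, which left out doublets with such UMIs. Neutrophils and myeloid cells also had no Cd79a UMI, and myeloid cells were not neutrophils. T cells had no Cd79a UMI and fewer than 2 NK gene UMIs, or 2 or more for T cells with NK genes. B and T cells were not filtered on Cst3 or neutrophil genes. Codetection was averaged over 20 random thinnings of each cell to 1000 UMIs. Promoters were aligned with Biopython 1.88.

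Identifiers of 32158 of 32285 genes matched GENCODE vM21. Named genes were all 10 members, the 3 adaptors, genes of the receptor list past 2-fold with 20 or more UMIs, and the 5 highest and 5 lowest by their least extreme ratio over the 3 libraries in the Klrc1 split, with immunoglobulin and T cell receptor segments, Xist, Tsix and Y-linked genes left out. The members and lists were chosen with earlier results of these data known. The ratio and thinning code was tested on simulated counts. Alternatives were other cell limits, kept multiple hashtags, other NK gates, TMM factors (edgeR 4.0.16), equal weight per hashtag population, leaving out each population, the control populations with an Xist UMI in under or over 1% of kept cells as the only control, no UMI minimum and other thinning depths.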

Additional observations from a re-analysis of the deposited data

How the results depend on the processing

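Of 462 alternative values of the member ratios and their Klra sum, 438 lay within the counting interval of the reported value, 23 lay outside it and 1 reversed a called sign. Of the 24, 19 came from setting the Xist-low or Xist-high control populations alone as the control, an alternative chosen after the data were seen. They concern Klra4, Klra7, Klra8, Klrc1 and the Klra sum, and the reversed one is Klra7 in Ang II (0.0099 against Xist-low). The others were Klra4 without control C0305 (-0.63 for B6.SLE123 and 0.084 for Ang II) and, with the cell limits read as UMIs, the Ang II ratios of Klra9 (0.44), Klrb1c (-0.081) and the Klra sum (0.14). Gating on Ncr1 lowered Klra4 in the control library to 538 CPM. The interval of Klre1 in B6.SLE123 reached 0 in 10 of 20 alternatives and that of Klrc1 in 3. In Ang II those of Klra4 and Klra7 did so in 2 each, and those of Klrb1c and Klrc1 in 1 each. Without a UMI minimum, genes past 2-fold numbered 930 higher and 603 lower in B6.SLE123 and 992 higher and 476 lower in Ang II. Against the Xist-high control populations 407 were higher in Ang II. Leaving out each hashtag population in turn gave 214 to 260 higher and 129 to 182 lower in B6.SLE123, and 201 to 298 higher and 86 to 117 lower in Ang II. The mean number of Klra genes per cell was 0.942, 1.01 and 0.840 (control, Ang II, B6.SLE123) after thinning to 500 UMIs and 1.83, 2.17 and 1.46 without thinning, with the same order. All 63 alternative values of the Klrc1 split, chosen after the data were seen, stayed within the counting interval of the reported value, as did the others of the 60 alternative levels. The UMI minimum of 500 for populations that do not overlap was also chosen after the data were seen. No paired analysis was possible because each group was 1 library and no label pairs hashtags between libraries. Depth limits the shares of cells, and the number of libraries limits every comparison.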
